A study of Mus musculus with 4 samples.

Results

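Transcripts of 10 inflammasome and inflammatory cytokine genes were followed in mouse tumor-infiltrating cells. They were Nlrp3, Casp1, Il1b, Il18, Il1a, Il1rn, Il1r2, Tnf, Il6 and Il12a, chosen by symbol out of 55367 gene rows. Of these, 9 had enough counts to be tested and Il12a had no count in any library. The libraries came from B16-F10 tumors, which grow from a mouse melanoma line, and the labels describe a sort of CD45.2+CD8+ cells. There were 2 libraries titled WT and 2 titled KO. The series is described as comparing WT mice with Satb1 F/F mice carrying ThPOK-cre or E8I-cre, drivers active in CD4 lineage and in CD8 lineage T cells. The sample labels name neither the driver behind KO nor the age and sex of the animals. The count tables are 1 per library, so cells were measured in bulk. Nothing says that the libraries came from separate animals, and p-values therefore measure only the spread between these libraries, which may be technical.

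Counts on genes ranged from 4017875 to 5382915 per library, which were 20.46% to 28.79% of the reads in each table. Satb1, the targeted gene, had 7 and 5 counts in WT 1 and WT 2 but 131 and 55 in KO 1 and KO 2, higher in the libraries labeled KO (log2 fold change 3.36 ± 0.79, edgeR adjusted p = 0.1147). The targeted gene was thus not lower under the KO label, whose driver is not named. The median log2 fold change of 12 T cell markers, higher in the same libraries, was 3.68. The groups are therefore called the libraries labeled WT and KO. Xist, transcribed from the inactive X chromosome, had 435 and 216 counts in the WT-labeled libraries and 0 and 3 in the KO-labeled ones, and the Y-linked Ddx3y had 0 and 0 against 188 and 81. Sex-linked transcripts and label thus cannot be told apart. A list of 13 macrophage or monocyte markers took 2.401% to 4.103% of gene counts in every library, whereas 12 T cell markers took 0.00789% and 0.01277% in WT 1 and WT 2 and 0.2597% and 0.1374% in KO 1 and KO 2. Cd8a, which encodes the coreceptor named in the sort, had 24 and 28 counts in the WT-labeled libraries and 843 and 733 in the KO-labeled ones. In such bulk libraries, fewer cells of a type and less RNA per cell cannot be told apart.

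Inflammasomes are cytosolic complexes that myeloid cells assemble after sensing infection or damage. NLRP3 is one such sensor, and it activates caspase-1, which cleaves the precursors of IL-1β and IL-18 into secreted cytokines. IL-1α acts through the same receptor as IL-1β, the antagonist encoded by Il1rn competes for that receptor, and the receptor encoded by Il1r2 binds IL-1 without signaling. TNF, IL-6 and IL-12 are other cytokines that activated myeloid cells secrete, each with its own receptor, and NF-κB, AP-1 and C/EBP factors are known regulators of many of these genes.

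The stretches of 250 bases before the RefSeq start sites of the 3 genes whose libraries labeled KO all lay above those labeled WT are shown because they carry the sequence context of the largest differences without overlap. They come from GRCm38.p6, and are read 5′ to 3′ on the strand of the gene. Capitals mark matches to 5 motifs searched on both strands. The Il6 window is chr5:30012864-30013113 on the plus strand, the Il1b window is chr2:129371140-129371389 on the minus strand, and the Il1r2 window is chr1:40085843-40086092 on the plus strand, which lies inside the longer gene model of GENCODE.
Il6: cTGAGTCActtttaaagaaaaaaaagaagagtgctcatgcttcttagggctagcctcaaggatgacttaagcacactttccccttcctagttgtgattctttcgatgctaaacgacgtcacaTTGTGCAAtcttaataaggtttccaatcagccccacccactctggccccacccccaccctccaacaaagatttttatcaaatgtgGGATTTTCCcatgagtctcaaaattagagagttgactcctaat
Il1b: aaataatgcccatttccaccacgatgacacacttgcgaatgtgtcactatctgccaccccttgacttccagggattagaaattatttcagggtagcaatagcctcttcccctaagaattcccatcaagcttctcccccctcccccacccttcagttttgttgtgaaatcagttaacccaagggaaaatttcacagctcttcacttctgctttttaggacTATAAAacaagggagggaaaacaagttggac
Il1r2: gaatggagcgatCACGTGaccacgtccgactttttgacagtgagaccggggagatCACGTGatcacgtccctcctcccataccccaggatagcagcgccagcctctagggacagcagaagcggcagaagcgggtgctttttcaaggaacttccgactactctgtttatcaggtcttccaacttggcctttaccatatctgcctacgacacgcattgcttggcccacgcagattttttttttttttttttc

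In the Il6 window the capitals mark an AP-1 motif (TGANTCA), a C/EBP motif (TTGNGCAA) and a kappaB motif (GGNNTTTCC), in this order toward the start site. Of 32851 such windows over all genes, 6.75% held the AP-1 letters, 2.61% the C/EBP letters and 4.93% the kappaB letters. The Il1b window held a TATAAA box 31 to 26 bases before the start, letters found in 12.4% of windows. The Il1r2 window held 2 copies of the E-box CACGTG, found in 6.02% of windows. These are matches of letters. They do not show binding, and the motifs were chosen after the sequences and the values had been seen.

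None of the 9 tested genes passed the threshold of an adjusted p under 0.05 in edgeR's quasi-likelihood test, where 0.574% of the 11837 genes tested did. At an unadjusted p under 0.05 there were 2 of them, Il6 and Il1r2, or 22.2% of the 9 beside 13.7% (1619) of all tested genes. DESeq2 called 0 of the 9, beside 375 of 21241 genes. The likelihood ratio test of edgeR called 1, Il6, beside 556 of 11837 genes, so it called far more genes in general. The smallest absolute log2 fold change among called genes was 3.15, larger than that of any of the 9. In simulated data for this comparison, genes given a log2 fold change of 2 were recovered in 24.5% of cases and those given 4 in 92.5%, so most differences of a log2 fold change near 2 were not detectable in this design. Of the 9, 6 had a positive log2 fold change of KO against WT, and the median was 0.673, beside 0.051 over all tested genes. The median of the 9 was 0.438 without WT 1, 0.411 without WT 2, 1.15 without KO 1 and -0.0975 without KO 2. Over all tested genes it was 0.0725, 0.118, 0.0036 and 0.0367 in the same order. When libraries were scaled to the dendritic cell list, the median of the 9 was -0.875, beside -1.51 over all tested genes. The median absolute value was 0.673, beside 0.571 over all tested genes. In 3 of the 9 (33.3%), Il6, Il1r2 and Il1b, both libraries labeled KO lay above both labeled WT, beside 25.1% of all tested genes. None of the 9 had the opposite arrangement, beside 22.8% of all tested genes.

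**Figure D1:**
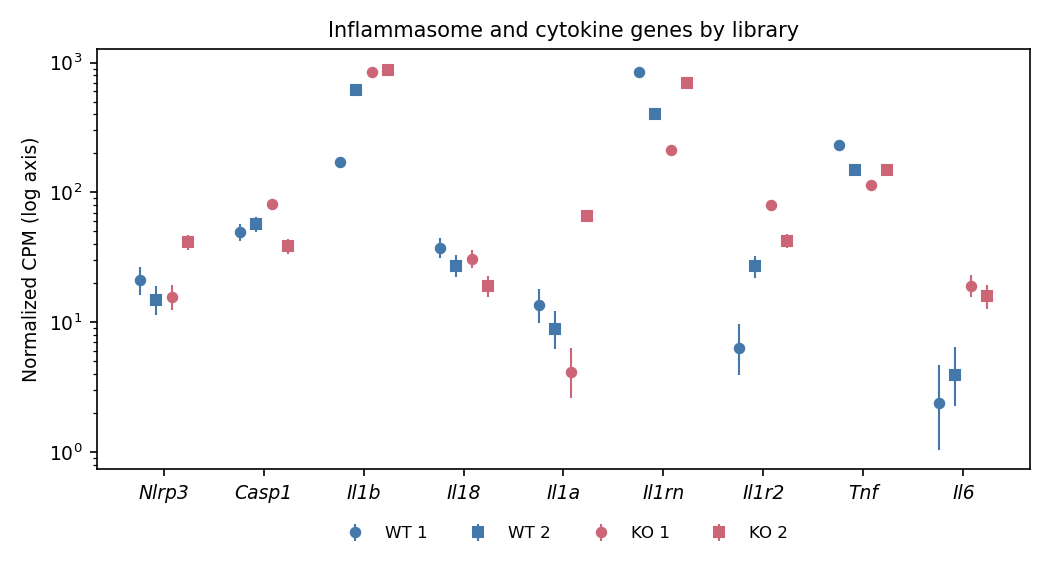
Normalized CPM (counts set to a common library total, log axis) of the 9 genes with counts, in each of the 4 libraries. Points are single libraries and bars are exact Poisson 95% intervals, which cover counting error only. Il6, Il1r2 and Il1b are higher in both libraries labeled KO at this TMM scaling (the fitted difference of Il1b turns negative when libraries are scaled to dendritic cell markers), and Il1a differs most between the KO libraries.

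The sensor gene Nlrp3 lies on chromosome 11 (59541568 to 59566956, GRCm38/mm10, plus strand) and its product starts assembly of the complex. Levels are given as normalized CPM, counts set to a common library total with edgeR's TMM factors, and a difference as the fitted log2 fold change, KO over WT. Nlrp3 had 20.97 and 14.81 normalized CPM in WT 1 and WT 2, and 15.65 and 41.18 in KO 1 and KO 2. The groups overlapped, since KO 1 lay between the WT libraries and KO 2 alone was high. The log2 fold change was 0.67 ± 0.58 (SE), with a 95% interval from -0.63 to 1.98 and an adjusted p of 0.6368. Without KO 2 it turned to -0.22. Casp1, the gene of the protease, lies on chromosome 9 (5298517 to 5307265, plus strand). It had 49.13 and 56.77 CPM in the WT-labeled libraries and 81.65 and 38.57 in the KO-labeled ones. The libraries labeled KO were the highest and the lowest of the 4. Its log2 fold change was 0.19 ± 0.49 (adjusted p = 0.8958), and without KO 1 it was -0.46. The ratio of Casp1 to Nlrp3, both per kb of exon, was 6.349 (WT 1), 10.39 (WT 2), 14.14 (KO 1) and 2.539 (KO 2). The 2 KO libraries therefore held the extremes of this ratio as well.

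Il1b, which encodes the main secreted product of the inflammasome, had the highest mean level per kb of the 10. It lies on chromosome 2 (129364570 to 129371139, minus strand). It had 172.2 and 614.6 CPM in WT 1 and WT 2, and 846.8 and 878.5 in KO 1 and KO 2. All the libraries labeled KO were above those labeled WT, but WT 1 stood well below WT 2. The log2 fold change was 1.14 ± 0.62, with a 95% interval from -0.26 to 2.54 and an adjusted p of 0.4532. It was 0.44 without WT 1 and 2.28 without WT 2. The WT libraries differed 3.568-fold, a ratio that 5.58% of tested genes with counts in every library reached or exceeded, whereas the KO libraries differed 1.037-fold. The medians of these ratios over 11517 genes were 1.36 in WT and 1.628 in KO. Il18, whose precursor is the other cytokine substrate, lies on chromosome 9 (50554827 to 50581840, plus strand). It had 37.44 and 27.15 CPM in the WT-labeled libraries and 30.73 and 18.94 in the KO-labeled ones. The groups overlapped, with a log2 fold change of -0.37 ± 0.48 (adjusted p = 0.7675), which was -0.77 without KO 1 and -0.097 without KO 2. Per kb, Il1b exceeded Il18 by 2.487-fold (WT 1), 12.24-fold (WT 2), 14.9-fold (KO 1) and 25.08-fold (KO 2), so the ratio was lowest in WT 1 and highest in KO 2.

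Il1a, the gene of the ligand that can also act inside or on the surface of cells, lies 54.6 kb from Il1b on chromosome 2 (129299610 to 129309972, minus strand). It had 13.48 and 8.89 CPM in WT 1 and WT 2, and 4.15 and 65.33 in KO 1 and KO 2. KO 1 was the lowest and KO 2 the highest library. The KO libraries differed 15.75-fold, which 0.547% of tested genes reached or exceeded. A log2 fold change of 1.64 ± 0.98 was fitted (adjusted p = 0.4825). It was 2.54 with an adjusted p of 0.02305 without KO 1, and -1.45 with an adjusted p of 0.2351 without KO 2, so its direction depended on a single library. Of its exon bases, 11.2% overlap Gm14023 on the opposite strand, and 1.31% of those of Il1b overlap Il1bos. The strand setting of the counting is not given in the sources used here, so reads of such pairs cannot be told apart. Il1b exceeded Il1a per kb by 13.23-fold (WT 1), 71.6-fold (WT 2), 211.3-fold (KO 1) and 13.92-fold (KO 2).

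The receptor antagonist gene Il1rn, on chromosome 2 (24336853 to 24351494, plus strand), had 842.0 and 398.9 CPM in WT 1 and WT 2, and 210.8 and 701.4 in KO 1 and KO 2. The libraries labeled KO and WT interleaved. Its log2 fold change was -0.44 ± 0.65 (adjusted p = 0.8003), and it was 0.16 without WT 1 and 0.17 without KO 1. Il1rn per kb stood at 1.684 times Il1b (WT 1), 0.2236 times (WT 2), 0.08577 times (KO 1) and 0.2751 times (KO 2). Antagonist transcripts thus exceeded those of Il1b in WT 1 and were fewer in the other libraries. The decoy receptor gene Il1r2, on chromosome 1 (40074079 to 40125231, plus strand), had 6.29 and 26.90 CPM in the WT-labeled libraries and 79.76 and 42.39 in the KO-labeled ones. The groups did not overlap, and WT 1 was the lowest. The log2 fold change was 1.87 ± 0.67, with a 95% interval from 0.36 to 3.39, an unadjusted p of 0.02059 and an adjusted p of 0.2733. It was 1.12 without WT 1 and 3.22 without WT 2. Over the 18 alternative analyses the adjusted p ranged from 0.00536 to 1. It passed the threshold without KO 2 (0.04494), without a filter on low counts (0.03661) and with the crossed pairing (0.005355).

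**Figure D2:**
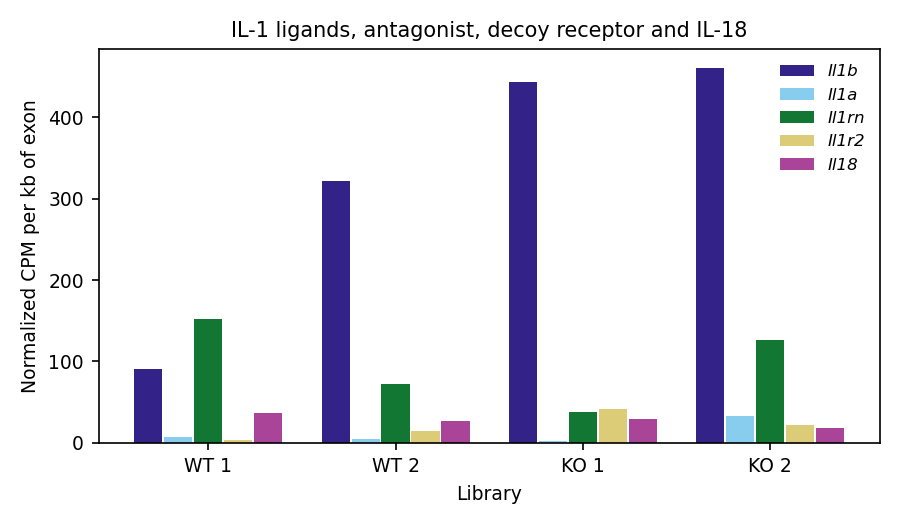
Normalized CPM per kb of merged exon (linear axis from 0) of Il1b, Il1a, Il1rn, Il1r2 and Il18 in each library, with 1 bar per gene and library and no error bars. Il1rn is above Il1b in WT 1, and Il1b is above the others in WT 2, KO 1 and KO 2.

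Tnf, the gene of tumor necrosis factor, lies on chromosome 17 (35199381 to 35202007, minus strand). It had 231.8 and 147.9 CPM in WT 1 and WT 2, and 113.7 and 149.1 in KO 1 and KO 2. WT 2 and KO 2 were nearly equal, and the groups overlapped. KO against WT gave a log2 fold change of -0.53 ± 0.45 (adjusted p = 0.634), which was -0.22 without WT 1 and -0.86 without WT 2. Il6, which encodes a cytokine of the acute phase response, lies on chromosome 5 (30013114 to 30019981, plus strand). It had 8 and 16 counts in the WT-labeled libraries and 101 and 91 in the KO-labeled ones, or 2.40, 3.95, 19.04 and 15.81 CPM. Both KO libraries were well above both WT libraries, and their exact Poisson 95% intervals did not meet, with 6.413 the upper limit of WT 2 and 12.73 the lower limit of KO 2. KO against WT gave a log2 fold change of 2.44 ± 0.64, the largest of the 9, with a 95% interval from 1.005 to 3.88. The unadjusted p was 0.003815 and the adjusted p was 0.15. Over 17 alternative analyses the adjusted p ranged from 0.0155 to 0.841, and it was past the threshold in 5 of them, namely the crossed pairing, scaling to the macrophage list, no filter on low counts, the likelihood ratio test and leaving out KO 2 (adjusted p = 0.0435). Per kb, Tnf exceeded Il6 by 143.3-fold (WT 1), 55.46-fold (WT 2), 8.844-fold (KO 1) and 13.97-fold (KO 2), and the groups did not overlap in this ratio. Il12a, which encodes the p35 chain of IL-12 and lies on chromosome 3 (68690644 to 68698547, plus strand), had 0 counts in each library. A count of 0 allows up to 0.8986, 0.7405, 0.5657 and 0.5212 CPM in WT 1, WT 2, KO 1 and KO 2, taking 3 counts as the limit.

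**Figure D3:**
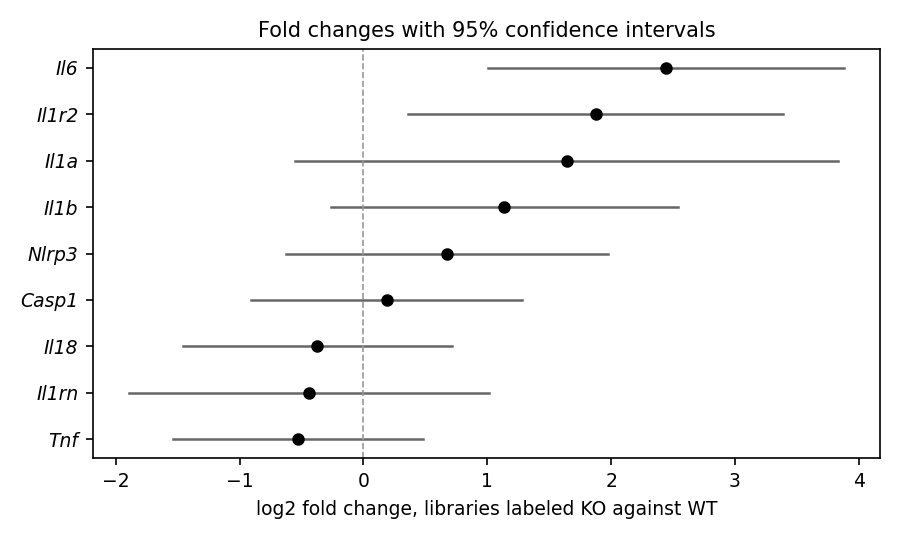
Log2 fold change of the libraries labeled KO against WT for the 9 tested genes, with edgeR 95% confidence intervals as bars. The intervals of Il6 and Il1r2 lie above 0 and those of the other genes cross it, under TMM scaling and before adjustment for the 11837 genes tested.

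The signs of the smaller fold changes depended on how libraries were scaled. The median log2 fold change of all tested genes was 0.051 under TMM scaling, 0.387 without scaling factors, 0.783 when libraries were scaled to the macrophage or monocyte list, and -1.51 when they were scaled to the dendritic cell list. Scaling to the macrophage list turned Il1rn, Il18 and Tnf positive, and scaling to the dendritic cell list turned Il1b, Nlrp3 and Casp1 negative. Relative to the median of all genes, Il6, Il1r2, Il1a, Il1b, Nlrp3 and Casp1 were above it and Il1rn, Il18 and Tnf below it. A scaling shifts all genes nearly alike, so this position is almost fixed by construction across scalings and is no sign of stability. Under TMM scaling the difference from that median was 2.39 for Il6, 1.82 for Il1r2 and 1.09 for Il1b.

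Ordered by mean CPM per kb over the 4 libraries, Il1b stood first at 329.3, followed by Tnf at 98.0, Il1rn at 97.3, Casp1 at 37.8, Il18 at 27.7, Il1r2 at 20.4, Il1a at 11.6, Nlrp3 at 5.71, Il6 at 4.24 and Il12a at 0. No pair of neighbors among the 9 genes with counts kept its order in all 4 libraries. Over all 36 pairs of these 9, 22 kept their order, and Il1b kept its order with 6 of the other 8. All 10 genes together took 0.1143% and 0.1236% of gene counts in WT 1 and WT 2, and 0.166% and 0.2086% in KO 1 and KO 2. Their summed normalized CPM was 1375.8, 1299.8, 1402.3 and 1951.2 in the same order. The groups were thus also apart on that scale, but KO 1 was close to WT 1. Il1b alone contributed 172.2, 614.6, 846.8 and 878.5 of these sums. The rest of the sum was highest in WT 1 and overlapped between the groups, so this separation came from Il1b.

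**Figure D4:**
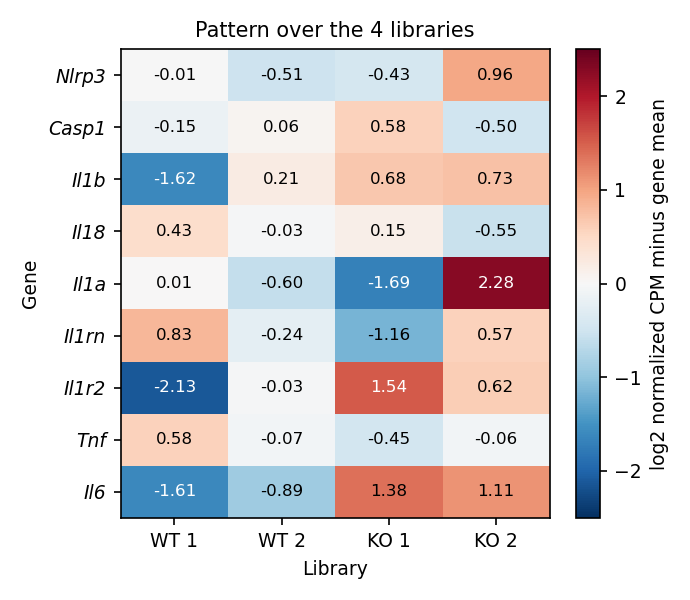
Heat map of log2 normalized CPM minus the mean of each gene over the 4 libraries, with 1 row per gene and 1 column per library. Il1b, Il1r2 and Il6 share their lowest value in WT 1, and Il1a runs from -1.69 in KO 1 to 2.28 in KO 2.

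The genes whose pattern over the 4 libraries was nearest to that of Il1b, by root mean square difference of centered log2 CPM among 6217 genes with a mean of at least 20 CPM, were Vcpip1 (0.0734), Tacc3 (0.107), Gbp4 (0.14), Cdca3 (0.147) and Kif20a (0.162). Each was lowest in WT 1. With 4 libraries, this likeness is a description.

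Markers of other cells moved with the labels and are given beside these results. Of 12 T cell markers, 9 were called higher in the libraries labeled KO, and 0 of 13 macrophage or monocyte markers were called, with 8 of them lower in both KO libraries. A list of 9 dendritic cell markers took 0.01068% and 0.01725% of gene counts in WT 1 and WT 2 and 0.0577% and 0.04382% in KO 1 and KO 2, and the groups did not overlap. Of its 9 markers, 4 were higher in both KO libraries and 1 lower in both. Ccr7, with 20 and 36 counts against 1363 and 1574, was the one past the threshold, and Cd209a had 26 and 66 against 666 and 135, Fscn1 3 and 5 against 68 and 53, and Zbtb46 1 and 4 against 21 and 51. Without Ccr7 the summed list took 0.0102% and 0.0164% in WT 1 and WT 2 and 0.0273% and 0.0146% in KO 1 and KO 2, with overlap. Batf3 was the marker lower in both KO libraries, with 170 and 262 counts against 150 and 75 (adjusted p = 0.2582). Neutrophil markers took 0.005982% to 0.01566%, with S100a9 at 0, 0, 1 and 1 counts. A list of 7 melanoma markers took 0.02173% and 0.02542% of gene counts against 0.2317% and 0.1253%, and 6 fibroblast or endothelium markers took 0.002066% and 0.001924% against 0.1355% and 0.01982%. Mast cell or basophil markers had at most 3 counts per library, B cell markers 21 to 182 and NK cell markers 3 to 50. Genes of dissociation stress took 0.8782%, 0.8716% and 0.8411% in WT 1, WT 2 and KO 1, and 1.797% in KO 2, the library in which Il1a and Nlrp3 were highest. The part of these lists in the results was not tested. Per 1000 counts of the macrophage list, Il6 had 0.06498 and 0.09151 counts in WT 1 and WT 2 and 0.9391 and 0.5426 in KO 1 and KO 2. On the same basis Il1b had 4.67 and 14.24 against 41.76 and 30.15, and Il1r2 had 0.1706 and 0.6234 against 3.933 and 1.455. Nlrp3, whose CPM overlapped, had 0.5685 and 0.3432 against 0.7717 and 1.413. The groups were apart on this basis for these 4 genes and overlapped for the other 5 with counts. Among the latter, Tnf had 6.286 and 3.426 against 5.607 and 5.116. The share of all tested genes that were apart on this basis was not counted. Scaling to the macrophage list moved the median log2 fold change of all tested genes from 0.051 to 0.783, so the 4 genes cannot be set against a background here.

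Other genes of these pathways were described from 5 lists of 82 genes, of which 68 were tested. Only Ltb passed the threshold (1 of 68, beside 0.574% of all genes), 36 (52.9%) had a positive log2 fold change, beside 52.6% of all tested genes, and 18 (26.5%) had an unadjusted p under 0.05, beside 13.7% of all tested genes. Both libraries labeled KO were above both labeled WT in 26.5% of the 68, beside 25.1% of all tested genes, and below them in 23.5%, beside 22.8%. The shares without overlap were thus close to the background in both directions. Counts of positive values and medians below are for TMM scaling unless another is named. Scaled to the macrophage list, the 5 lists in the order below had 15, 12, 10, 9 and 7 positive values. Their medians were then 0.335, 0.761, 1.26, 0.342 and 2.42, beside 0.783 over all tested genes. Scaled to the dendritic cell list, they had 0, 4, 1, 1 and 4 positive values. Medians were then -1.98, -1.51, -0.953, -1.84 and -0.0362, beside -1.51 over all tested genes.

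Among 21 tested inflammasome genes other than Nlrp3 and Casp1, none was called and 8 had a positive log2 fold change, with a median of -0.44. Pycard, which encodes the adaptor ASC that links sensor and caspase-1, had 520.3 and 534.1 CPM in WT 1 and WT 2, and 215.3 and 240.1 in KO 1 and KO 2. The WT libraries were higher without overlap (log2 fold change -1.21 ± 0.45, adjusted p = 0.2876). Ninj1, whose product ruptures the membrane of dying cells, had 1944 and 762.7 CPM in the WT-labeled libraries and 187.2 and 830.9 in the KO-labeled ones, with overlap (adjusted p = 0.4449).

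Of 13 tested genes of the IL-1 family, none was called and 7 had a positive log2 fold change, with a median of 0.04. Myd88, the adaptor that carries signals of IL-1 and IL-18 receptors, had 237.2, 248.8, 155.6 and 220.0 CPM in WT 1, WT 2, KO 1 and KO 2, both WT libraries being higher (adjusted p = 0.747). Il18bp, which encodes a soluble protein that neutralizes IL-18, had 265.4, 177.2, 58.83 and 104.1 CPM in the same order, also higher in both WT libraries (log2 fold change -1.44 ± 0.48, adjusted p = 0.2445). Il18rap and Il18r1, the chains of the IL-18 receptor, are named after their values were seen. Il18rap had 6 and 7 counts in the WT-labeled libraries and 164 and 92 in the KO-labeled ones (log2 fold change 3.72 ± 0.68, adjusted p = 0.05222). Il18r1 had 0 and 0 counts against 44 and 21, which is at least 7.288-fold higher against a floor of 3 counts in each library (adjusted p = 0.0981).

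Of 10 tested genes of the IL-6 family, none was called and 10 had a positive log2 fold change under TMM scaling but 1 under scaling to the dendritic cell list. The median was 0.54 under TMM scaling. Osm, the gene of oncostatin M, had 99.75 and 181.4 CPM in WT 1 and WT 2 and 111.8 and 479.4 in KO 1 and KO 2, so only KO 2 was high (adjusted p = 0.5014). Socs3, which encodes an inhibitor of signaling by IL-6 type cytokines, had 296.8, 367.5, 175.9 and 528.9 CPM, with overlap (adjusted p = 0.9654).

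Of 15 tested genes of the TNF family, 1 was called and 5 had a positive log2 fold change, with a median of -0.28. Ltb, which encodes a lymphotoxin chain made mostly by lymphocytes, had 5.99 and 11.11 CPM in WT 1 and WT 2 and 126.0 and 65.16 in KO 1 and KO 2. It was higher in both libraries labeled KO (log2 fold change 3.48 ± 0.57, adjusted p = 0.03661), as were the 12 T cell markers, of which 9 passed the threshold. Without WT 1 its call was lost, and 0 of 72 tested pathway genes passed. Tnfrsf1a, the receptor of TNF on most cells, had 316.6, 301.6, 149.7 and 206.6 CPM, higher in both WT libraries (adjusted p = 0.4575). Tnfrsf1b, the second TNF receptor, had 668.0, 396.4, 157.6 and 541.0 CPM, with overlap (adjusted p = 0.7042).

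Of 9 tested genes of the IL-12 family, none was called and 6 had a positive log2 fold change, with a median of 1.52. Il27 and Ebi3, the chains of IL-27, were both higher in the WT-labeled libraries. Il27 had 26.06 and 26.16 CPM against 7.35 and 8.51 (log2 fold change -1.71 ± 0.52, adjusted p = 0.2073). Ebi3 had 58.11 and 59.49 CPM against 15.46 and 32.32 (log2 fold change -1.29 ± 0.49, adjusted p = 0.2994). Il12b, the partner of Il12a in IL-12 and named after its values were seen, had counts of 0 in WT 1, 6 in WT 2, and 36 and 34 in the KO libraries (adjusted p = 0.2995).

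**Figure D5:**
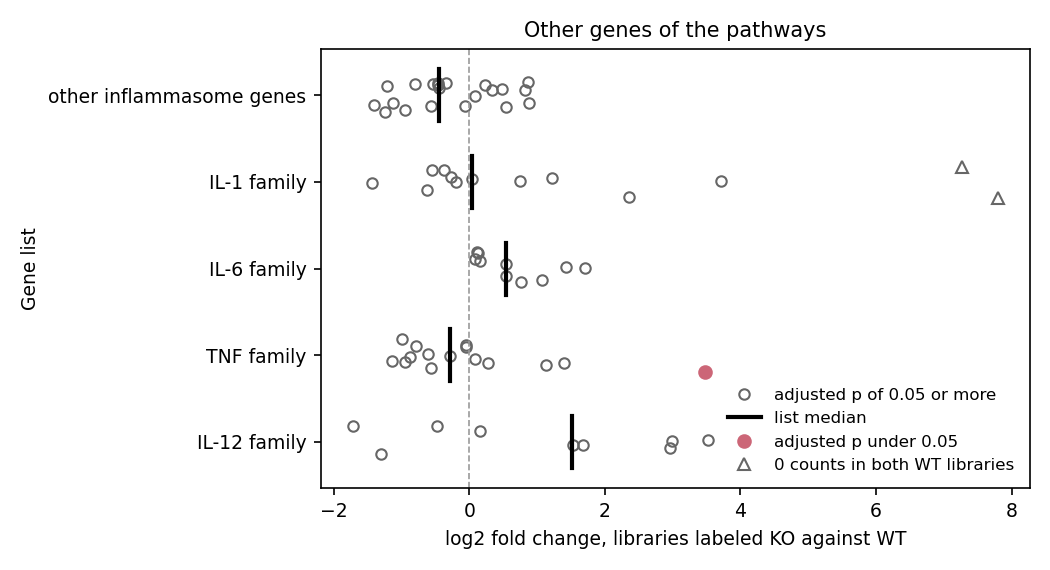
Log2 fold change of the libraries labeled KO against WT for the 68 tested genes of the 5 pathway lists. Points are genes, black bars are list medians, the filled point is Ltb, and triangles are genes with 0 counts in both WT libraries, whose fitted values depend on the prior count.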

How the data were processed

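The authors deposited whole-number counts of reads per gene, 1 table per library, without normalization. The submitters' processing notes name HISAT2 2.1.0, HTSeq 0.11.0 and mm10. The annotation and strand setting of the counting are not given in the sources used here. Summary rows were dropped, and gene rows held 20.46% to 28.79% of reads. Of 55367 symbols, 96.25% matched GENCODE M21 (GRCm38/mm10), the source of positions and merged exon lengths. Intervals and floors cover counting error only.

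Counts were tested in R 4.3.3 with edgeR 4.0.16 (filterByExpr, TMM factors, quasi-likelihood F test, group as the only term, prior count 0.125). P-values are two-sided and adjusted by the Benjamini-Hochberg method over 11837 genes, with a threshold of 0.05. With 2 libraries a group, the smallest two-sided p of an exact permutation test is 0.333, so none was run. Tests were checked on simulated data. CPM used TMM-scaled gene-count totals.

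The 10 genes and all lists were chosen with earlier results of these data known. Named by rule were the 10 genes, in each pathway list every called gene and the 2 with the highest mean CPM per kb, and the 5 genes most like Il1b. Il18rap, Il18r1 and Il12b were named outside this rule, after their values were seen. Older symbols were set in the IL-1 list once the tables had been read. Alternatives were other scalings, filters, DESeq2 1.42.0, the likelihood ratio test, a replicate block, thinning, a prior count of 2, removal of gene classes and leaving out each library. A crossed pairing and scaling to dendritic cell list counts were added after seeing the data, and the kappaB motif was shortened by 1 letter after its matches were seen. Plots used matplotlib 3.10.9.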

Additional observations from a re-analysis of the deposited data

How the results depend on the processing

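Of 161 values of the 9 genes under 18 alternatives, 138 kept their direction and side of the threshold, 11 turned direction and 12 passed the threshold that they had missed. Calls over all genes, over the 9 genes and over the pathway lists were 68, 0 and 1 in the reported analysis. These were out of 11837, 9 and 68 tested. On the same sets calls were 134, 0 and 2 without scaling factors and 423, 1 and 5 with scaling to the macrophage list. With the likelihood ratio test they were 556, 1 and 6. Out of 21241, 9 and 75 tested, they were 583, 2 and 7 without a filter and 375, 0 and 4 with DESeq2. The fits without single libraries, given last, tested 12326 to 13160 genes. With at least 10 counts in every library, calls were 28, 0 and 1 out of 9779, 8 and 56 tested, and Il6 was not tested. Without single libraries they ranged from 113 to 1248, from 0 to 2 and from 0 to 16, with 113, 0 and 0 without WT 1 and 1248, 2 and 16 without KO 2.

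With the replicate block the counts were 215, 0 and 3. Same-numbered libraries deviated from their group means with a correlation of -0.189 over 11837 genes. With 2 libraries a group, this value cannot show whether same-numbered libraries were paired, and the labels do not say. The crossed pairing, chosen after seeing the data, gave 647, 2 and 6.

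Scaling to dendritic cell list counts, also chosen after seeing the data, gave 5562, 3 and 36, of which 196, 0 and 4 were higher in the libraries labeled KO. Ccr7, itself a called gene, made up 4.66% and 4.9% of that list's counts in WT 1 and WT 2 and 52.7% and 66.7% in KO 1 and KO 2. There Il1b was -0.29, Nlrp3 -0.88 and Casp1 -1.41, while Il1rn, Il18 and Tnf passed the threshold at -2.03, -2.00 and -2.13. Scaling to the macrophage list gave 0.10 for Il1rn, 0.39 for Il18 and 0.14 for Tnf, and passed Il6 at 3.21 (adjusted p = 0.04201). Over the analyses without single libraries, log2 fold changes ranged from -1.45 to 2.54 for Il1a, from -1.58 to 0.17 for Il1rn, from -0.22 to 1.201 for Nlrp3, from -0.46 to 0.60 for Casp1, from 0.44 to 2.28 for Il1b and from 1.12 to 3.22 for Il1r2, both lowest without WT 1 and highest without WT 2. They ranged from 2.08 to 2.80 for Il6, from -0.77 to -0.097 for Il18 and from -0.86 to -0.22 for Tnf. The cause of the other moves was not tested. Depth limits Il6 most, with 8 counts in WT 1 and a counting error of 35.4%.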
